A study of Rattus norvegicus with 6 samples.

Results

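The insulin-like growth factor (IGF) system was examined in the pulmonary veins (PVs) of banded and sham-operated young rats through 10 genes, chosen by symbol from the 17833 genes of the expression table. The comparison asks which of their transcripts differ in veins narrowed by a band. They are 2 ligands (Igf1 and Igf2), 2 receptors (Igf1r and Igf2r) and 6 binding proteins (Igfbp2 to Igfbp7). All 10 were listed and all 10 passed the filter on low values. Bulk RNA-seq was available for 3 rats whose veins had been banded on both sides (bilateral pulmonary vein banding, BPVB) and for 3 sham rats, all wild type and of the Sprague-Dawley strain (SD in the labels). Every rat was operated on at postnatal day 1, and the vein tissue of the right upper lobe was taken at postnatal day 21. The sham rats shared the hypothermic anesthesia, the chest opening and its closure, and the constriction of the veins was the one step that they did not receive. The band is a mechanical model of PV stenosis, and the tissue was sequenced whole, so that a change in the number of cells of a type and a change in the RNA per cell cannot be told apart.

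IGF1 and IGF2 are small secreted growth factors that signal to cell growth and survival through the receptor tyrosine kinase encoded by Igf1r. The product of Igf2r is a mannose 6-phosphate receptor that takes up IGF2 for degradation in lysosomes. IGF binding proteins hold the ligands in the extracellular space, where they can keep them from the receptor or store them in the matrix, and IGFBP7 differs from the others in its low affinity for IGFs. In the vessel wall these proteins are made by smooth muscle cells, fibroblasts and endothelial cells.

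The promoters of 3 binding protein genes are shown because the results turn on them. Igfbp7 was the most abundant transcript of the system, and Igfbp4 and Igfbp5 exchanged places in FPKM between the groups. The RefSeq windows (build GRCr8) run from 250 bases before to 50 bases after the start of the gene, on the gene's strand, 5′ to 3′. Capitals mark matches to the TATA box, spelled TATAAA, on either strand. They also mark matches to the GC box, spelled GGGCGG, on either strand, of which the reverse complement is shown as it reads. The Igfbp7 window lies at chr14:31091486-31091785 (plus strand), the Igfbp4 window at chr10:84491221-84491520 (plus strand) and the Igfbp5 window at chr9:81914138-81914437 (minus strand).
Igfbp7: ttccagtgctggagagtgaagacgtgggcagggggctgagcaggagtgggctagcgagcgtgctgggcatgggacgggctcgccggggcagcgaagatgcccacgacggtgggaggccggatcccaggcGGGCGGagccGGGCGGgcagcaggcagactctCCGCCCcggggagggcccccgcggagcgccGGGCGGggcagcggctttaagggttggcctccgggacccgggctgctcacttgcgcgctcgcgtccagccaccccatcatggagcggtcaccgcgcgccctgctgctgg
Igfbp4: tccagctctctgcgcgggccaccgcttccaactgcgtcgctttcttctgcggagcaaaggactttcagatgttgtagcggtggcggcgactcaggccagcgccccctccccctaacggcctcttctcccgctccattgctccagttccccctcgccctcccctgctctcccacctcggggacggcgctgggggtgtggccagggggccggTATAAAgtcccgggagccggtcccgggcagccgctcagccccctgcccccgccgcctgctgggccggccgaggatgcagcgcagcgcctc
Igfbp5: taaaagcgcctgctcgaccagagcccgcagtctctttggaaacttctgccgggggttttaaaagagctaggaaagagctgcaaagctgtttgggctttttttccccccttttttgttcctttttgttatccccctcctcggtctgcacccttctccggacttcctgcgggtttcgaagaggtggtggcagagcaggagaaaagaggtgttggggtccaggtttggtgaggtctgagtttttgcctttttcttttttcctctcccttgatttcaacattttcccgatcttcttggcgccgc
The Igfbp7 window held 4 GC boxes and no TATAAA. The Igfbp4 window held 1 TATAAA and no GC box, and the Igfbp5 window held neither. Among the 33469 rat promoter windows of the same length, 14.2% held TATAAA and 33.1% held GGGCGG. These 3 windows held 32, 27 and 11 CpG dinucleotides, beside a median of 7 over all windows. Windows of the other members were not printed. Igf2r held 2 GC boxes, Igf1r, Igfbp2 and each of the 2 windows of Igf2 held 1, and neither motif was found in the windows of Igf1, Igfbp3 and Igfbp6. In the RefSeq gene order Igfbp2 and Igfbp5 are neighbours on chromosome 9, and Igfbp3 is the neighbour of Igfbp1 on chromosome 14.

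Expression is given as FPKM, in which gene length and library size have been divided out. Levels compared between genes thus rest on a single length for each gene, from 869 bases for Igfbp6 to 9361 bases for Igf1. Whether the transcripts present had these lengths was not tested. The fragments behind each FPKM could be recovered, and library totals ranged from 26078189 to 29725808 in the BPVB group and from 23439506 to 23821184 in the sham group. The members rested on 321 to 26204 fragments per library, except Igfbp2, which had 11 to 49. The groups were compared by limma on log2(FPKM + 0.5), and a gene was called when its p-value, adjusted by the Benjamini-Hochberg method over the 15150 genes tested, was under 0.05. Labels give 3 separate rats per group, and n is 3 for every mean ± SD below.

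Of the 10 members, 6 were called higher in the BPVB group (Igf2, Igf2r, Igfbp3, Igfbp4, Igfbp6 and Igfbp7), 1 was called lower (Igfbp5) and 3 were not called (Igf1, Igf1r and Igfbp2). Over all genes tested, 31.5% were called, 17.2% higher and 14.3% lower. In the 7 called members all 3 values of one group lay above all 3 of the other, which was the case for 45.6% of all genes tested. None of the members had an absolute log2 fold change above 1 together with an adjusted p under 0.05, thresholds that 3.27% of the tested genes passed. The largest log2 fold change of a called member was 0.82, that of Igfbp6. The median log2 fold change of all 10 members was 0.43, beside 0.02 for all genes tested. Among the called members, the ratio of mean FPKM in the BPVB group to that in the sham group ranged from 0.833 for Igfbp5 to 1.77 for Igfbp6.

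**Figure D1:**
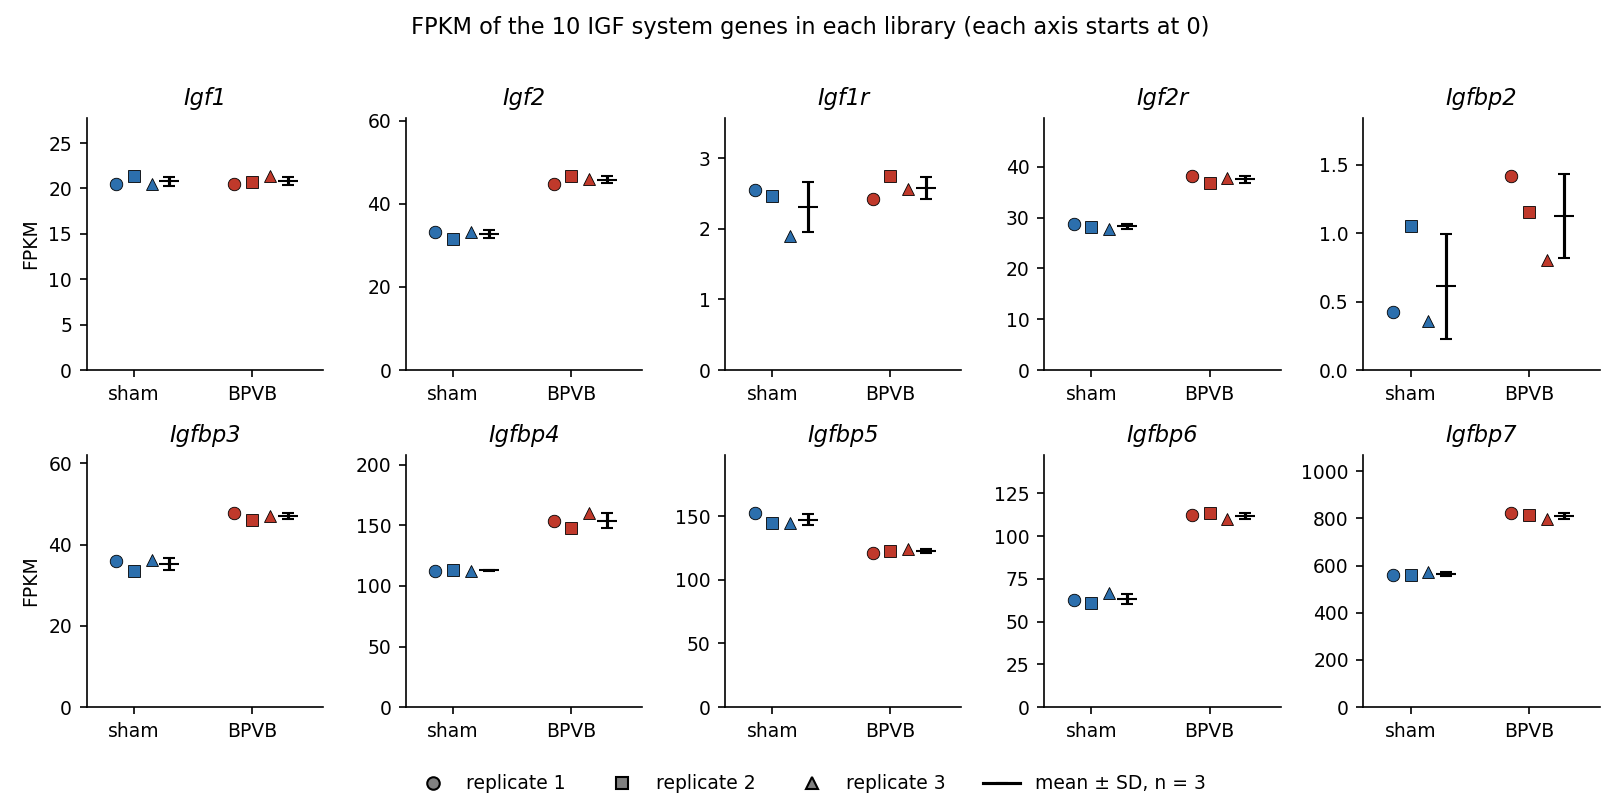
FPKM (vertical axis, from 0 in each panel) of the 10 genes in the 3 sham (blue) and 3 BPVB (red) libraries, with symbols for the replicate and the mean ± SD beside them. The groups are apart in 7 panels and overlap in those of Igf1, Igf1r and Igfbp2.

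The 2 ligands behaved differently. Igf1, the growth factor that growth hormone induces, had 20.5, 20.7 and 21.4 FPKM in banded rats and 20.5, 21.4 and 20.5 FPKM in sham rats. The groups overlapped, with means of 20.8 ± 0.471 and 20.8 ± 0.487 FPKM. Its log2 fold change was 0.00 (95% confidence interval -0.10 to 0.11, limma, adjusted p = 0.97), so that the interval left room for a fold between 0.932 and 1.08. Igf2, the imprinted ligand that dominates growth before birth, had 44.9, 46.7 and 45.9 FPKM in banded rats and 33.1, 31.6 and 33.3 FPKM in sham rats. Every BPVB value was above every sham value. Mean Igf2 was 45.8 ± 0.919 FPKM against 32.7 ± 0.912 FPKM, 1.40 times the sham mean (log2 fold change 0.48, standard error 0.04, limma, adjusted p = 3.1e-05).
A ratio taken within a library does not depend on the scaling between libraries. Igf2 exceeded Igf1 by a factor of 2.19, 2.26 and 2.15 in banded rats and of 1.61, 1.48 and 1.62 in sham rats. Igf2 was thus the more abundant ligand transcript in all 6 libraries, and its excess was larger in each BPVB library than in any sham library. On the log2 scale the ratio of Igf1 to Igf2 was -1.14 ± 0.04 in the BPVB group and -0.65 ± 0.07 in the sham group (difference -0.48, two-sided exact permutation test, p = 0.1, which is as low as 3 against 3 can go).

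Among the receptors, the transcript of the signalling receptor was low and that of the IGF2 uptake receptor was high. Igf1r had 2.42, 2.75 and 2.56 FPKM in banded rats and 2.55, 2.47 and 1.90 FPKM in sham rats. The lowest value was that of sham replicate 3, and the groups overlapped. The log2 fold change of Igf1r was 0.14 (95% confidence interval -0.14 to 0.42, limma, adjusted p = 0.44), and the interval covers folds from 0.905 to 1.34. Without sham replicate 3 the log2 fold change of Igf1r was 0.03. Igf2r had 38.2, 36.9 and 37.8 FPKM in banded rats and 28.8, 28.3 and 27.9 FPKM in sham rats. These values did not overlap. Its mean was 37.6 ± 0.684 FPKM against 28.3 ± 0.479 FPKM, 1.33 times the sham mean (log2 fold change 0.40, standard error 0.04, limma, adjusted p = 8.3e-05).
Both Igf2 and its uptake receptor rose. The ratio of Igf2 to Igf2r, a comparison chosen after their values were seen, was 1.17, 1.27 and 1.22 in banded rats and 1.15, 1.12 and 1.20 in sham rats. The groups overlapped, and the difference in the log2 ratio was 0.08 (two-sided exact permutation test, p = 0.2). Insr, the insulin receptor gene whose product can pair with that of Igf1r, had a mean of 8.81 ± 0.102 FPKM in the BPVB group and 8.78 ± 0.413 FPKM in the sham group (log2 fold change 0.01, limma, adjusted p = 0.95). Its transcript exceeded that of Igf1r by a factor of 3.43 ± 0.251 in the BPVB group and 3.89 ± 0.846 in the sham group.

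The 6 binding proteins made up most of the IGF system transcripts. Their summed FPKM came to 1259, 1247 and 1240.0 in banded rats and 924, 911.5 and 935 in sham rats, and 4 were called higher, 1 lower and 1 not called. Igfbp7, a secreted protein known from the basement membrane of blood vessels, had 822, 815 and 798 FPKM in banded rats and 560.1, 558 and 574 FPKM in sham rats. It ranked 107th of all listed genes by its mean FPKM, and its groups were far apart relative to the spread within them. The mean of Igfbp7 was 812 ± 12.7 FPKM against 564 ± 8.71 FPKM, 1.44 times the sham mean (log2 fold change 0.52, standard error 0.02, limma, adjusted p = 7e-07).
Igfbp6, whose product prefers IGF2 to IGF1, showed the largest fold among the called members. It had 112.5, 114 and 109.9 FPKM in banded rats and 62.4, 60.8 and 66.7 FPKM in sham rats, without overlap. Its mean was 112 ± 1.89 FPKM against 63.3 ± 3.06 FPKM, 1.77 times the sham mean (log2 fold change 0.82, standard error 0.04, limma, adjusted p = 1.3e-06).
Igfbp4, a soluble inhibitor of IGF action that proteases of the pappalysin family cleave, had 154, 148 and 160.2 FPKM in banded rats and 113, 113 and 112 FPKM in sham rats. Relative to their mean, the sham values lay closer together than those of any other member, and all BPVB values were above them. Its BPVB mean was 1.37 times the sham mean (log2 fold change 0.45, standard error 0.03, limma, adjusted p = 1.9e-05). Igfbp3, the main carrier of IGFs in blood, had 47.8, 46.2 and 47.2 FPKM in banded rats and 36.0, 33.4 and 36.2 FPKM in sham rats. All BPVB values of Igfbp3 were above the sham values, and their mean was 1.34 times the sham mean (log2 fold change 0.41, standard error 0.04, limma, adjusted p = 0.00012).
Igfbp5, which binds to extracellular matrix and is expressed by smooth muscle cells and fibroblasts, was the one member that fell. It had 121, 123 and 124 FPKM in banded rats and 152, 145 and 145 FPKM in sham rats. The groups did not overlap, with means of 123 ± 1.47 and 147 ± 4.47 FPKM. The sham mean was 1.20 times the BPVB mean (log2 fold change -0.26, standard error 0.03, limma, adjusted p = 0.00027).
Igfbp2, a carrier of IGFs that is prominent in fetal tissue, was the least abundant member. It had 1.42, 1.15 and 0.805 FPKM in banded rats, from 49, 39 and 31 fragments. In sham rats it had 0.422, 1.05 and 0.357 FPKM, from 13, 32 and 11 fragments. Sham replicate 2 lay within the BPVB range and the other 2 sham values below it. The BPVB mean of 1.13 ± 0.307 FPKM was 1.84 times the sham mean of 0.611 ± 0.385 FPKM. The log2 fold change was 0.58 (95% confidence interval 0.03 to 1.14, limma, adjusted p = 0.1), and without sham replicate 2 it was 0.85 with an adjusted p of 0.015. The call of Igfbp2 thus turned on 1 library at a low depth.

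**Figure D2:**
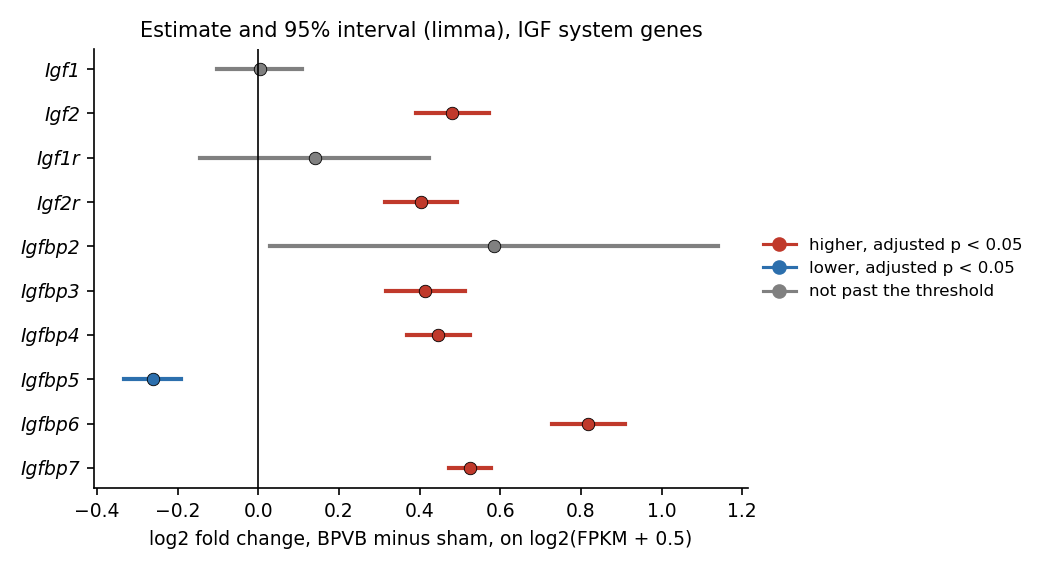
Log2 fold change on log2(FPKM + 0.5), BPVB minus sham (horizontal axis), of the 10 genes, with points for the limma estimate and lines for its 95% confidence interval. The intervals of 6 called genes lie right of 0, that of Igfbp5 lies left of it, and the interval of Igfbp2 is the widest.

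Because the binding proteins changed by different amounts, their composition differed. Igfbp7 made up 65.3%, 65.4% and 64.3% of the summed binding protein FPKM in banded rats and 60.6%, 61.3% and 61.4% in sham rats. Igfbp5 made up 9.62%, 9.85% and 10.0% in banded rats and 16.5%, 15.9% and 15.5% in sham rats. Igfbp6 made up 8.93%, 9.11% and 8.86% in banded rats and 6.76%, 6.67% and 7.14% in sham rats. In these 3 shares the groups did not overlap, with differences of 3.91, -6.12 and 2.11 percentage points (two-sided exact permutation test, p = 0.1 each, the smallest possible, and 0.2 when adjusted over the 6 shares). The shares of Igfbp4 (12.3% ± 0.537 in the BPVB group and 12.2% ± 0.208 in the sham group), Igfbp3 (3.77% ± 0.0546 and 3.81% ± 0.124) and Igfbp2 (0.0901% ± 0.0239 and 0.0665% ± 0.0427) overlapped (exact permutation test, p = 0.8, 0.6 and 0.5). These shares depend on Igfbp7 in the sum: without it the difference in the share of Igfbp4 was 3.84 percentage points (exact permutation test, p = 0.1), and those of Igfbp5 and Igfbp6 were -12.9 and 8.01 percentage points.
In FPKM the exchange of places between Igfbp4 and Igfbp5 was seen in each library. Igfbp4 exceeded Igfbp5 by a factor of 1.27, 1.20 and 1.29 in banded rats, and in sham rats the ratio was 0.739, 0.784 and 0.777. This ratio was chosen after the values were seen. Its shift between the groups does not depend on the gene lengths used, whereas the side of 1 on which it falls can. The lengths were 2164 bases for Igfbp4 and 1627 bases for Igfbp5. In fragments the sham libraries had 5791, 5752 and 5795 for Igfbp4 and 5895, 5514 and 5609 for Igfbp5. Banded rats had 8894, 8344 and 10303 fragments for Igfbp4 and 5261, 5211 and 6002 for Igfbp5. The ratio of all binding protein FPKM to ligand FPKM was 19.3, 18.5 and 18.4 in banded rats and 17.2, 17.2 and 17.4 in sham rats. That difference (0.12 on the log2 scale, two-sided exact permutation test, p = 0.1) rested on Igfbp7: without it the difference was -0.04 (exact permutation test, p = 0.2).

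**Figure D3:**
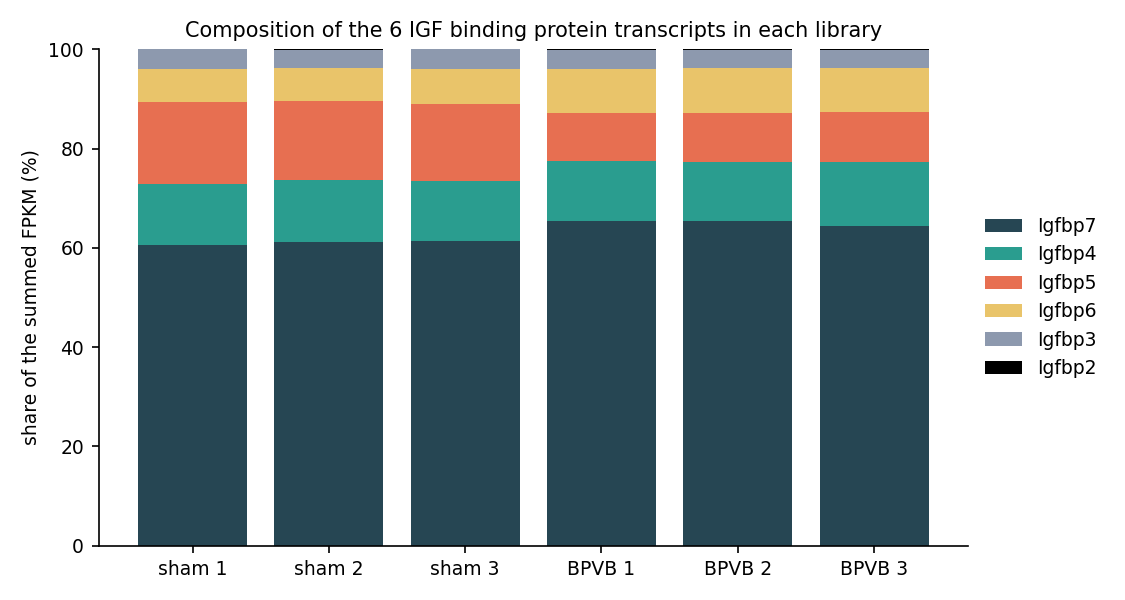
Share of each of the 6 binding proteins in their summed FPKM (vertical axis, percent), with 1 stacked bar per library. The Igfbp5 segment is 15.5% to 16.5% of the sham bars and 9.62% to 10.0% of the BPVB bars, and the Igfbp2 segment is too thin to see in most bars.

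Ranked by mean FPKM, the order in the sham group was Igfbp7, Igfbp5, Igfbp4, Igfbp6, Igfbp3, Igf2, Igf2r, Igf1, Igf1r and Igfbp2, and no 2 neighbours in it overlapped. In the BPVB group Igfbp4 stood before Igfbp5, and the rest of the order was the same. There Igfbp3 and Igf2 overlapped and differed by a factor of 1.03, whereas the other neighbours did not overlap. The step from Igf1 down to Igf1r was 8.09-fold in the BPVB group and 9.02-fold in the sham group.
Over the 6 libraries and the 12156 genes averaging 1 FPKM or more, the genes most like Igf2 in log2(FPKM + 0.5) were Dynll1, B2m and Aqp5 (Pearson r = 0.999, 0.998 and 0.998), and 168 genes reached an r above 0.99 with it. Those most like Igf1 were Bhlhb9, Tnrc6b and Pigp (r = 0.986, 0.979 and 0.969), and none passed 0.99. These values describe 6 libraries that fall into 2 groups, so that any gene that differs between the groups correlates with Igf2. Aqp5 is also among the alveolar type 1 markers given below.

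Genes that regulate the binding proteins and ligands were followed in lists. Of the genes named for binding IGF or, as the Igf2bp genes do, Igf2 mRNA, 3 of 6 passed the filter (Igfbpl1, Igf2bp2 and Igf2bp3) and none was called, with log2 fold changes of 0.42, 0.44 and 0.29 (limma, adjusted p = 0.22, 0.063 and 0.19). Igfbpl1 passed the filter through the BPVB group alone, with 5, 17 and 0 fragments in banded rats and 1, 0 and 0 in sham rats, so that its values say little. Igf2bp2 had an unadjusted p of 0.021 (limma), which ranked only 5151st among the 15150 genes tested. Limma-voom on the recovered fragments called 1 gene of this family higher, beside 3026 genes higher and 2563 lower of the 16358 it tested. Igfbp1 and Igfals, which in the adult are made mainly by the liver, had at most 4 and 6 fragments in a library. Of 7 tested genes listed as binding protein proteases or their inhibitors, 3 were called higher and none lower, with a list median of 0.15. Over all genes tested, 17.2% were called higher and 14.3% lower. Whether the listed products act on a binding protein in this tissue was not tested. The called genes, named after their values were seen, were Adamts1 (27.0 ± 0.988 FPKM in the sham group and 34.6 ± 1.66 in the BPVB group, log2 fold change 0.35, limma, adjusted p = 0.0008), Prss23 (0.15, adjusted p = 0.0023) and Htra1 (0.12, adjusted p = 0.011). Pappa2, a protease of IGFBP5, had a log2 fold change of 0.26 (limma, adjusted p = 0.17). The pappalysin inhibitors Stc1 and Stc2 had log2 fold changes of 0.03 and 0.33 (limma, adjusted p = 0.86 and 0.16). Pappa was not analysed here.

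The growth hormone axis, which drives Igf1 transcription in liver and other tissues, held 8 tested genes. In it 2 genes were called higher and 4 lower (17.2% and 14.3% over all genes tested), with a list median of -0.23, while mean Igf1 was 20.8 FPKM in both groups. Ghr, the growth hormone receptor, had 36.0, 38.2 and 35.8 FPKM in banded rats and 45.3, 42.7 and 43.0 FPKM in sham rats (log2 fold change -0.25, standard error 0.04, limma, adjusted p = 0.0025). Jak2, the kinase that the receptor activates, moved the other way, with 17.8, 18.2 and 17.0 FPKM in banded rats and 10.5, 11.0 and 11.5 FPKM in sham rats (log2 fold change 0.66, standard error 0.06, limma, adjusted p = 5.1e-05). Neither gene overlapped between the groups.
Of the 4 feedback inhibitors of cytokine receptor signalling in the list, 3 fell. Socs2, which limits growth hormone signalling, had 10.1, 10.2 and 11.6 FPKM in banded rats and 21.5, 20.0 and 19.4 FPKM in sham rats (log2 fold change -0.90, standard error 0.07, limma, adjusted p = 2.4e-05). Socs3 had 5.53, 5.55 and 6.13 FPKM in banded rats and 13.6, 13.8 and 13.4 FPKM in sham rats (log2 fold change -1.18, standard error 0.07, limma, adjusted p = 3.2e-06). For both genes each BPVB value was far below each sham value. Cish had 6.68, 7.62 and 7.73 FPKM in banded rats and 10.6, 11.6 and 10.3 FPKM in sham rats (log2 fold change -0.53, limma, adjusted p = 0.0011). Socs1 was higher in the BPVB group (4.43 ± 0.623 FPKM against 2.92 ± 0.0213 FPKM, log2 fold change 0.52, limma, adjusted p = 0.0069), a call that limma-voom on the recovered fragments did not keep although its log2 fold change there was 0.60 (adjusted p = 0.066). The transcription factors Stat5a and Stat5b had log2 fold changes of -0.21 and -0.05 and were not called.

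Downstream of the receptors, 28 genes of insulin and IGF receptor signalling were tested. Of these, 10 were called higher and 2 lower, with a list median of 0.10, beside 17.2% higher and 14.3% lower over all genes tested. Irs2, an adaptor of the IGF1 and insulin receptors, had 5.84, 6.17 and 5.51 FPKM in banded rats and 3.65, 3.92 and 4.42 FPKM in sham rats (log2 fold change 0.50, standard error 0.10, limma, adjusted p = 0.0041). Its paralog Irs1 had a log2 fold change of 0.11 (limma, adjusted p = 0.45). Trib3, a pseudokinase that binds AKT, had 2.25, 2.22 and 2.63 FPKM in banded rats and 0.970, 0.447 and 1.35 FPKM in sham rats. It was the one gene of this list past a log2 fold change of 1 (1.06, standard error 0.22, limma, adjusted p = 0.0067), and its groups did not overlap. With a pseudocount of 1 its log2 fold change was 0.84, and without sham replicate 2 it was 0.80. The 2 lower genes, named after their values were seen, were Pik3r1, a regulatory subunit of PI3-kinase (-0.43, limma, adjusted p = 0.00015), and Foxo3, a transcription factor that AKT inhibits (-0.28, adjusted p = 0.0068).

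**Figure D4:**
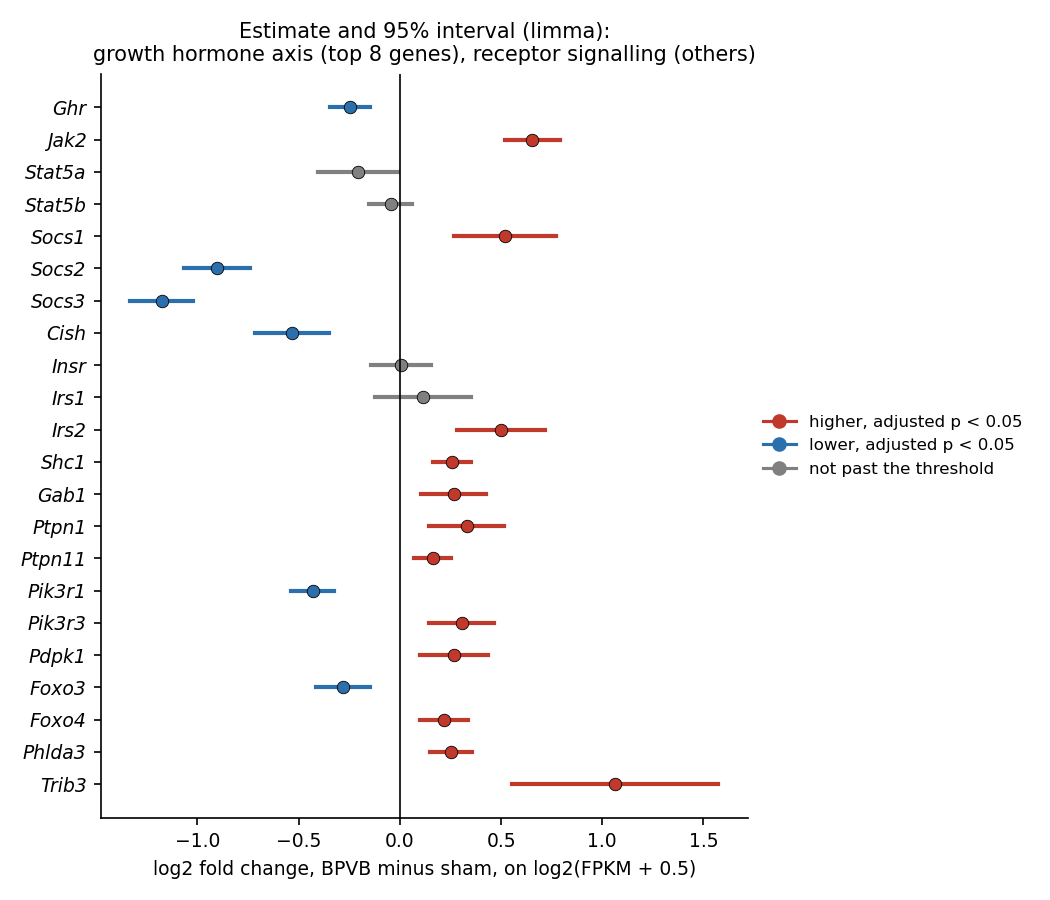
Log2 fold change on log2(FPKM + 0.5), BPVB minus sham (horizontal axis), of the 8 tested growth hormone axis genes (top) and of Insr, Irs1 and the called receptor signalling genes, with points for the limma estimate and lines for its 95% confidence interval. Socs2, Socs3 and Cish lie left of 0, Jak2, Irs2 and Trib3 lie right of it, and the interval of Insr spans 0.

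Imprinted growth genes other than Igf2 showed no single direction. Of 8 tested, 3 were called higher and 1 lower (17.2% and 14.3% over all genes tested), with a list median of 0.19. The count called higher fell to 1 under several alternatives, and the count called lower rose to 2 under some. Mest had 15.3, 19.5 and 14.9 FPKM in banded rats and 10.5, 7.35 and 9.50 FPKM in sham rats (log2 fold change 0.83, standard error 0.14, limma, adjusted p = 0.0019). The groups did not overlap for Mest. The other calls, named after their values were seen, were Peg3 (0.17, limma, adjusted p = 0.035), Cdkn1c (0.34, adjusted p = 0.049) and Gnas (-0.19, adjusted p = 0.0011). Gnas was called in 16 of 16 alternatives, Peg3 in 7 and Cdkn1c in 5, and with the replicate block Peg3 and Cdkn1c had adjusted p-values of 0.069 and 0.056 (limma). H19 and Meg3 were not analysed here.

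Marker genes of several other cell types differed between the same groups. Summed FPKM of 8 alveolar type 2 cell markers was 552.5 to 598 in banded rats and 61.5 to 63.0 in sham rats, and all 8 were called higher. The sum of 9 macrophage markers was 714 to 732 against 253 to 260 FPKM, with 8 called higher, and most of it was Lyz2 (592 against 163 FPKM), which alveolar type 2 cells also express. Alveolar type 1 markers, of which 5 of 6 were called higher and 1, Hopx, lower, summed to 151 to 160 against 84.3 to 88.0 FPKM, and Hopx alone had a mean of 59.3 against 70.9 FPKM. The sum of 10 fibroblast markers was 7049 to 7083 against 6187 to 6226 FPKM (5 called higher, 2 lower and 3 not called). The sums for endothelium (1080 to 1096 against 1223 to 1233 FPKM, 5 of 8 called lower), smooth muscle (3862 to 3912 against 4187 to 4267 FPKM, 4 of 6 called lower and 1 higher) and pericytes (735 to 751 against 850 to 863 FPKM) were below those of sham rats. Of the 5 pericyte markers 4 were not called, and the lower one, Rgs5, made up most of the sum (630 against 737 FPKM). Atrial cardiomyocyte markers summed to 15490 to 15900 FPKM against 21300 to 21700 FPKM (6 of 8 lower, 2 higher), Schwann cell and neuron markers to 31.6 to 33.0 against 94.5 to 102 FPKM (4 of 6 lower) and mesothelium markers to 2.28 to 2.37 against 4.15 to 5.53 FPKM (3 of 4 tested lower). The adipocyte sum (1307 to 1350 against 1308 to 1323 FPKM) overlapped and was mostly Fabp4, whose mean was 1297 against 1299 FPKM. Of the other adipocyte markers Adipoq, Plin1 and Cidec were called higher, at 2.98, 4.43 and 3.39 times the sham mean, and Ucp1 was called lower. Erythroid markers (12810 to 16570 against 15670 to 19400 FPKM, 1 of 5 called lower) overlapped in their sums. The markers named here were chosen after their values were seen. None of these markers was at 0 in all libraries, and Marco was not analysed here. In its single-cell data the paper excluded epithelial cells, which it considered likely to come from lung tissue and not from the vein. The part of the cell types listed here in the changes of the IGF genes was not tested.

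In the RefSeq annotation the coding genes listed in the table that overlap a member are Polr2b with Igfbp7, Pgpep1l with Igf1r and LOC102548568 with Igf2. Polr2b had 1768 to 2131 fragments in a library, Pgpep1l 57 to 161 and LOC102548568 at most 1. A strand setting of the counting is not given in the sources used here, so that reads of these overlapping genes cannot be told apart, and their part in the values was not tested.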

How the data were processed

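Pulmonary vein RNA of 3 BPVB and 3 sham-operated rats was sequenced as paired-end reads. Groups and replicate numbers were taken from the sample labels, which give pulmonary vein banding, whereas the series' design text calls the operated rats PAB. The authors deposited 1 FPKM value per gene and library. The paper names fastp, HISAT and HTSeq-count, whereas the submitters' processing notes name HISAT2 2.0.5, StringTie 1.3.3b, featureCounts 1.5.0-p3 and DESeq2 1.20.0. The genome build, annotation and strand setting are not given in the sources used here. The library kit also differs between the paper (VAHTS Universal V6) and the labels (NEBNext Ultra). The table held 0 unused columns of sample values.

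Whole fragment numbers were recovered from the ratios of each gene's FPKM between libraries (tolerance 0.001) for 100% of the 17833 genes. On a simulated table of 2500 genes, all counts were right for 95.3% of genes, and for 98.2% of the 1873 genes with at least 50 fragments in a library. The variance between libraries of a group was a median of 3.41 (BPVB) and 3.33 (sham) times the mean, so fragment numbers show depth but not the whole error.

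limma 3.58.1 in R 4.3.3 (lmFit, eBayes with trend) was run on log2(FPKM + 0.5) over 15150 genes that averaged 0.1 FPKM or more, two-sided, with Benjamini-Hochberg adjustment. The pseudocount understates the change of low genes. The procedure was tested on simulated data. Within-library ratios and shares were compared by exact permutation tests. These used scipy 1.17.1, numpy 2.4.6 and pandas 2.3.3 under Python 3.11.15, and figures were drawn with matplotlib 3.10.9. Replicates sharing a number did not pair: their deviations correlated at 0.026, 0.014 and 0.015, so the replicate block was used as an alternative only.

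The members and gene lists were chosen with earlier results of these data known. All members are named. From the pathway lists, called genes with an absolute log2 fold change above 0.5 and Insr, Irs1, Irs2, Ghr, Pappa2, Stc1 and Stc2 are named. Stat5a, Stat5b, the genes named from the other IGF-binding family, the cell type markers and those so marked in the text were added after their values were seen. For Igf1 and Igf2, the 3 genes of highest Pearson correlation are named. Alternatives were pseudocounts of 1 and 0.1, no filter, a mean FPKM of at least 1, median of ratios, TPM, quantile normalization, the replicate block, robust eBayes, limma-voom on the recovered fragments, and leaving out each library.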

Additional observations from a re-analysis of the deposited data

How the results depend on the processing

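The 7 called members kept their direction and their call in 16 of 16 alternatives each, and Igf1r stayed uncalled. Log2 fold changes ranged from 0.79 to 0.86 for Igfbp6, from 0.50 to 0.57 for Igfbp7, from 0.46 to 0.52 for Igf2 and from -0.29 to -0.23 for Igfbp5. The log2 fold change of Igf1, near 0 throughout, was -0.022 under median of ratios and -0.0031 under quantile normalization, and ranged from -0.014 to 0.022 when 1 library was left out. For Igfbp2 it ranged from 0.42 to 0.85 when 1 library was left out, with a call only without sham replicate 2. A pseudocount of 0.1 gave 0.88 and limma-voom 0.98, without a call in either, and Igfbp2 was not fitted at a mean FPKM of at least 1.
The same-numbered libraries did not pair, although each library correlated best with its own number. With the replicate block 2466 genes were called higher and 2073 lower in place of 2605 and 2170, and no call of a member changed.
Stc1 had a log2 fold change of -0.041 under quantile normalization and -0.033 to 0.092 when 1 library was left out. Insr had -0.019 under median of ratios, -0.026 under quantile normalization and -0.015 to 0.043 when 1 library was left out. Without Igfbp7 in the sum, the difference in the log2 ratio of binding proteins to ligands was -0.035 and that in the share of Igfbp3 was 0.973 percentage points. The difference in the share of Igfbp4 ranged from -0.17 to 0.356 percentage points when 1 library was left out. Stc2 was called without BPVB replicate 1 (log2 fold change 0.48). Of the imprinted genes, 1 in place of 3 was called higher under median of ratios, quantile normalization, the replicate block and without any 1 library except BPVB replicate 1. The count of imprinted genes called lower was 2 in place of 1 at a mean FPKM of at least 1. It was also 2 under median of ratios, quantile normalization and without BPVB replicate 2. A gene of the other IGF-binding family was called higher under TPM, limma-voom and without BPVB replicate 1.
The count of genes past both thresholds, 496, was 325 with a pseudocount of 1, 901 with 0.1, 725 with TPM and 1132 with limma-voom. TPM called 2996 genes higher and 1880 lower, and median of ratios 2362 and 2454. The cause of these differences was not tested. The depth limits Igfbp2 and the genes with few fragments. The p-values of the main limma fit rest on the spread between 3 rats per group. Each gene's variance was drawn toward a trend over all genes tested.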
